A study of Mus musculus with 36 samples.

Results

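Chromatin accessibility was described around 4 genes for cardiac transcription factors, Gata4, Nkx2-5, Tbx5 and Tbx3, in the infarct border zone and in sham-operated left ventricle of the mouse. Members were all regions in the 9 deposited lists that overlapped a window around each gene on build mm9: chr14:63750000-63950000 for Gata4, chr17:26930000-27030000 for Nkx2-5, chr5:120230000-120420000 for Tbx5 and chr5:120020000-120229999 for Tbx3. The rule gave 108 of 122759 listed regions, 69 in the Gata4 window, 18 in the Nkx2-5 window, 13 in the Tbx5 window and 8 in the Tbx3 window. A region belongs to a window by position alone. In RefSeq (GRCm38.p6, used for gene order only) the nearest protein-coding neighbours are Neil2 and Blk for Gata4, and Bnip1 and Kifc5b for Nkx2-5, while Tbx3 and Tbx5 are each other's neighbours. No mm9 gene annotation was used here, so promoters, exons and introns were not placed and regions were not assigned to a gene beyond the window.

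Open chromatin was mapped by ATAC-seq: a transposase cuts and tags DNA where it is not covered by nucleosomes, and the number of tags over a region measures how open it is. All groups were FVB/N left ventricle. Border zone (BZ) nuclei came from tissue beside the infarct at 4, 7 and 14 days after myocardial infarction, and sham nuclei from sham-operated ventricles at the same times, with 1 library per condition and day, 6 in all. On day 4 both libraries came from Cdh5-Cre; Sun1-sfGFP mice, with no tamoxifen named, and the nuclei were sorted for GFP and enriched by a pulldown of PCM1, a centriolar protein found on cardiomyocyte nuclei. Cdh5-Cre is active in endothelial cells, and the labels do not say how the sort and the pulldown were combined. On days 7 and 14 all 4 libraries came from Myh6-MerCreMer; nTnG mice, in which tamoxifen (20 mg/kg) turns on a nuclear GFP in cardiomyocytes, and 50000 sorted nuclei were used per sample. The Myh6 promoter directs the Cre to cardiomyocytes. The growth notes of these samples name a Sun1/sfGFP line as well, without saying which mice carried it. Between day 4 and the later days the mouse line, the isolation and the aligner change together with the day, and these cannot be told apart; days 7 and 14 share all 3. Nothing in the labels says how many animals a library holds. The cardiomyocyte identity of the nuclei was not checked against marker genes, since the lists carry no gene names.

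GATA4, a zinc finger protein, NKX2-5, a homeodomain protein, and TBX5, a T-box activator, bind DNA together at the control regions of many genes of working heart muscle and are needed to form the heart. TBX3 is a T-box repressor, best known for keeping the working muscle programme off in the conduction system. Genes for such factors often have several distal control regions spread over long stretches around them.

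In all 4 windows the summed signal was lower in BZ than in sham nuclei on all 3 days, and the size of the difference varied by gene and day. Tbx3 had the lowest mean ratio over the 3 days (log2 ratio of -0.76 ± 0.38), followed by Tbx5 (-0.55 ± 0.56), Nkx2-5 (-0.40 ± 0.28) and Gata4 (-0.35 ± 0.19) (SD, n = 3 days). The spreads of the 4 means over days overlap, and the order rests on day 7 in part: without it the means were -0.60 for Tbx3, -0.23 for Tbx5, -0.24 for Nkx2-5 and -0.25 for Gata4. All these ratios use listed values, on which the median of all loci listed on 3 days was -0.18, -0.39 and -0.12 on days 4, 7 and 14. Relative to that median the means over all days were -0.53 for Tbx3, -0.32 for Tbx5, -0.17 for Nkx2-5 and -0.12 for Gata4. On day 4 Nkx2-5 (-0.01) and Tbx5 (-0.04) lay near the median. Each library pools many nuclei, so fewer nuclei with an open region and less opening per nucleus cannot be told apart. Of 21 loci of the windows that were listed on all 3 days, 3 passed the test over days: 1 at the edge of the Gata4 window was higher in BZ, and 1 in the Gata4 window and 1 in the Tbx3 window were lower in BZ. Over all loci listed on 3 days, 7.66% passed as higher in BZ and 2.32% as higher in sham. Both sham-higher calls of the windows were lost without day 7 or without day 14. Sham-higher calls over all 19733 loci fell too, from 457 to 129 without day 7 and to 20 without day 14. No region of the Nkx2-5, Tbx5 or Tbx3 window was listed as higher in BZ on any day, out of 39 regions in these 3 windows. Of all listed regions, 12.2%, 17.5% and 13.4% were listed as higher in BZ on days 4, 7 and 14. The 39 count a site again on each day it was listed, and come from 8 Nkx2-5, 7 Tbx5 and 3 Tbx3 loci.

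The 6 libraries held 2743837 to 10332897 tags in listed regions in BZ and 3858892 to 13936013 in sham, both lowest on day 7 and highest on day 14. The deposited values show BZ tags multiplied by a factor, most often 1.03 for the differential regions of day 4, and 1.35 and 1.37 for the regions of days 7 and 14; non-differential regions of day 4 carry unscaled BZ tags, so that the day 4 sums mix both. The values below are these listed values, in tags, unless named otherwise. On the listed scale the median of all 19733 loci listed on 3 days was itself below 0, at a log2 ratio of -0.18 on day 4, -0.39 on day 7 and -0.12 on day 14, while scaling by TMM factors (trimmed mean of M-values) put it at -0.01, -0.04 and 0.0. Differences of the 4 windows are therefore also given relative to that median.

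The Gata4 window had summed listed values of 3084 in BZ and 3869 in sham nuclei on day 4, 3046 in BZ and 4487 in sham on day 7, and 9464 in BZ and 10663 in sham on day 14. BZ was lower on each day, with a log2 ratio of -0.33 on day 4, -0.56 on day 7 and -0.17 on day 14. Relative to the median of all loci, the Gata4 window stood at -0.15, -0.17 and -0.05, closer to 0 than on the listed scale. The Nkx2-5 window had 1104 in BZ and 1256 in sham on day 4, 427 in BZ and 702 in sham on day 7, and 2565 in BZ and 3156 in sham on day 14. Its log2 ratio was -0.19, -0.72 and -0.30, or -0.01, -0.33 and -0.17 relative to all loci, so that on day 4 it lay at the median.

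The Tbx5 window had 584 in BZ and 678 in sham on day 4, 121 in BZ and 278 in sham on day 7, and 1244 in BZ and 1476 in sham on day 14. Its log2 ratio of -1.20 on day 7 (95% exact binomial interval -1.55 to -0.85) lay below those of -0.22 on day 4 (-0.38 to -0.05) and -0.25 on day 14 (-0.37 to -0.13), with intervals that do not overlap. Relative to the median of all loci these were -0.04 on day 4, -0.81 on day 7 and -0.12 on day 14. Tbx5 on day 7 rests on 92 BZ tags before scaling, in 4 regions. Apart from chr5:120281251-120282750 (53.9 in BZ), these reached the day's minimum of 50 tags in sham only. Regions with fewer than 50 tags in both groups could not be listed, so the day 7 ratio depends on the listing. The listed width also differed, at 7.5, 4.5 and 6.0 kb on days 4, 7 and 14. The intervals cover counting error only, there is no replicate within a day, and the difference between days was not tested.

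For the Tbx3 window the values were 622 in BZ and 787 in sham on day 4, 129 in BZ and 274 in sham on day 7, and 503 in BZ and 915 in sham on day 14. The log2 ratio was -0.34 (-0.49 to -0.19) on day 4, -1.08 (-1.43 to -0.74) on day 7 and -0.86 (-1.04 to -0.69) on day 14. Among the day 7 regions, only chr5:120024751-120025750 (79.5 in BZ) reached the minimum of 50 tags in both groups. On day 14 the Tbx3 ratio was lower than that of the neighbouring Tbx5 window (-0.25), and their counting intervals do not overlap. Relative to all loci Tbx3 stood at -0.16, -0.70 and -0.74. With 3 pairs of libraries, an exact sign-flip test of any of these means cannot give a two-sided p below 0.25, so none is given for the windows. On TMM factors the means over days were closer to 0 and kept their sign, at -0.55 ± 0.33 for Tbx3, -0.32 ± 0.43 for Tbx5, -0.19 ± 0.17 for Nkx2-5 and -0.14 ± 0.08 for Gata4 (SD, n = 3 days).

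**Figure D1:**
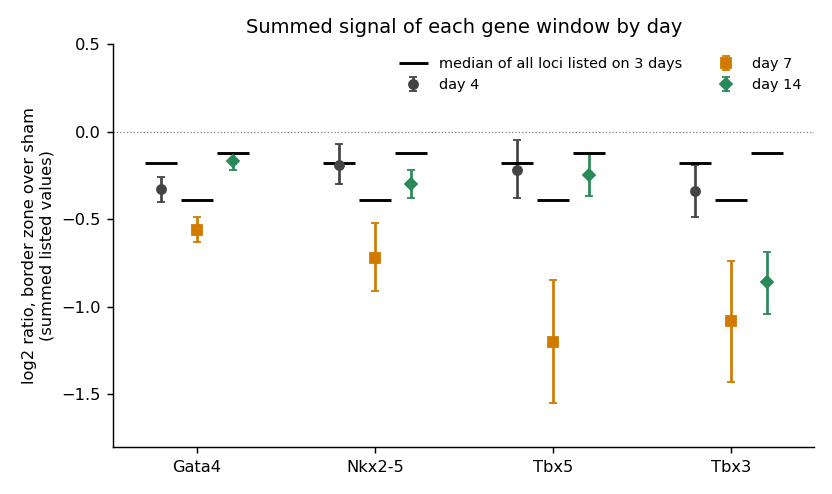
Summed log2 ratio of border zone over sham for each gene window (y axis) by gene (x axis) and day, from the listed values; points are 1 BZ and 1 sham library, error bars are 95% exact binomial intervals of the tags, and black bars mark the median of all loci listed on 3 days on that day. All 12 points lie below 0, and Tbx5 stands furthest below the median on day 7 (-1.20 against -0.39). Most Tbx5 regions of that day reached the minimum of 50 tags in sham only.

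Levels were compared between genes as tags per kb of listed width per 1000000 listed tags. In BZ nuclei Nkx2-5 averaged 20.5 ± 3.67, Gata4 19.8 ± 2.48, Tbx3 19.3 ± 8.45 and Tbx5 12.2 ± 4.11 (SD, n = 3 days). Sham nuclei had 29.9 ± 5.40 at Tbx3, 25.9 ± 0.808 at Nkx2-5, 24.6 ± 4.80 at Gata4 and 16.3 ± 1.23 at Tbx5. Neighbours in these orders did not differ beyond their spread, except that Tbx5 in sham (15.3 to 17.7) lay below Gata4 in sham (19.8 to 29.4) without overlap. Tbx3, in BZ nuclei, had 28.4 on day 4, 11.7 on day 7 and 17.8 on day 14, against 33.3, 23.7 and 32.8 in sham nuclei. These levels cover regions that reached the lists, and each day has its own lists. Over all listed regions the same measure averaged 16.7 on day 4, 23.8 on day 7 and 20.4 on day 14 in both groups. Levels of different days, and the SDs over days, therefore include that shift. A region could reach a list through its higher library alone.

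**Figure D2:**
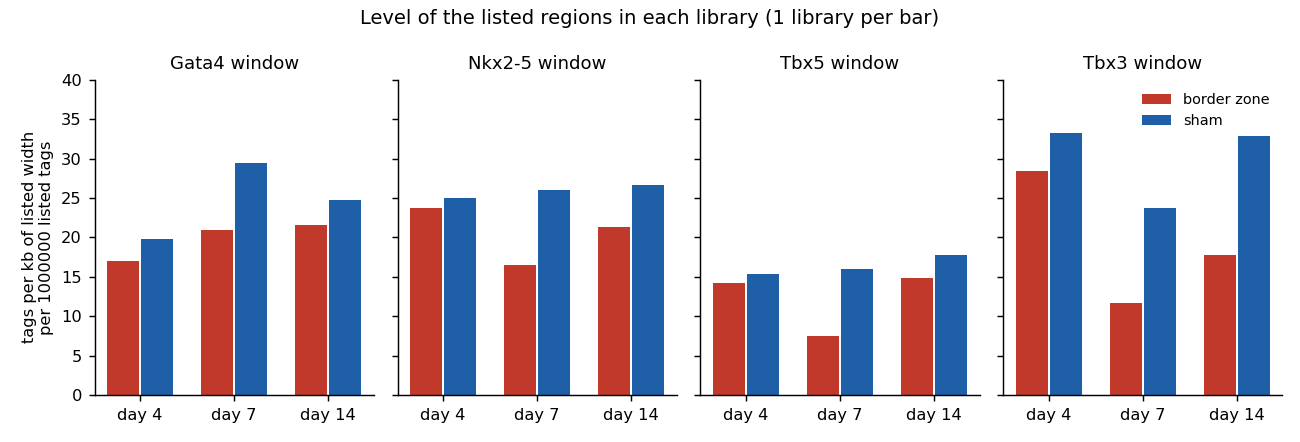
Tags per kb of listed width per 1000000 listed tags (y axis) in the regions of each gene window, by day (x axis), with BZ left of sham and 1 library per bar. The BZ bar is below the sham bar in every pair, and Tbx5 on day 7 has the lowest BZ level (7.45, against 16.0 in sham).

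The windows held between 35 and 38 listed regions on each day, 500 to 5000 bases wide. On day 4, 3 of 35 were listed as higher in BZ (8.57%, against 12.2% of all regions listed that day) and 2 as higher in sham (5.71%, against 7.37%). All 5 lie in the Gata4 window, and both shares are near or below those of the whole list. Day 7 had 1 of 38 higher in BZ (2.63%, against 17.5% of all) and 15 higher in sham (39.5%, against 22.0%), of which 7 were in the Gata4, 2 in the Nkx2-5, 4 in the Tbx5 and 2 in the Tbx3 window. On day 14, 1 of 35 was listed as higher in BZ (2.86%, against 13.4%) and 4 as higher in sham (11.4%, against 6.75%), 2 of them in the Gata4 and 2 in the Tbx3 window. All 4 listed Tbx5 regions of day 7 were higher in sham, while the 5 of day 4 and the 4 of day 14 were non-differential. Of those day 7 regions, only chr5:120281251-120282750 reached the day's minimum of 50 tags in BZ as well as sham. A region with fewer than 50 tags in both groups could not be listed, so the share of 4 in 4 depends on the listing. Other sham-higher regions of day 7 also reached the minimum in sham only. They were both Nkx2-5 regions, chr5:120101251-120102250 in the Tbx3 window, and chr14:63858251-63859250 and chr14:63887751-63888750 in the Gata4 window. The share of 39.5% therefore depends on the listing too. Differential regions in these lists have a fold of 1.75 or more, and on day 4 non-differential regions reach 1.93 in unscaled values. Among the members with lower BZ values, the smallest fold in favour of sham on the sham-higher lists was 1.83 for day 4, 1.78 for day 7 and 1.79 for day 14, and non-differential ones reached 1.58, 1.68 and 1.58.

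Most member regions had the lower listed value in BZ, 25 of 35 on day 4, 35 of 38 on day 7 and 26 of 35 on day 14. The share of all listed regions is not given here, so these counts cannot be read as an excess. The median log2 ratio of all listed regions was -0.09, -0.14 and 0.03 on these days. Some day 7 regions were listed through sham alone. Among loci listed on all 3 days the listed value was lower in BZ for 76.2% of the members and 70.9% of all loci on day 4. On day 7 it was lower for 90.5% of the members and 69.8% of all loci, and on day 14 for 71.4% and 61.1%.

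**Figure D3:**
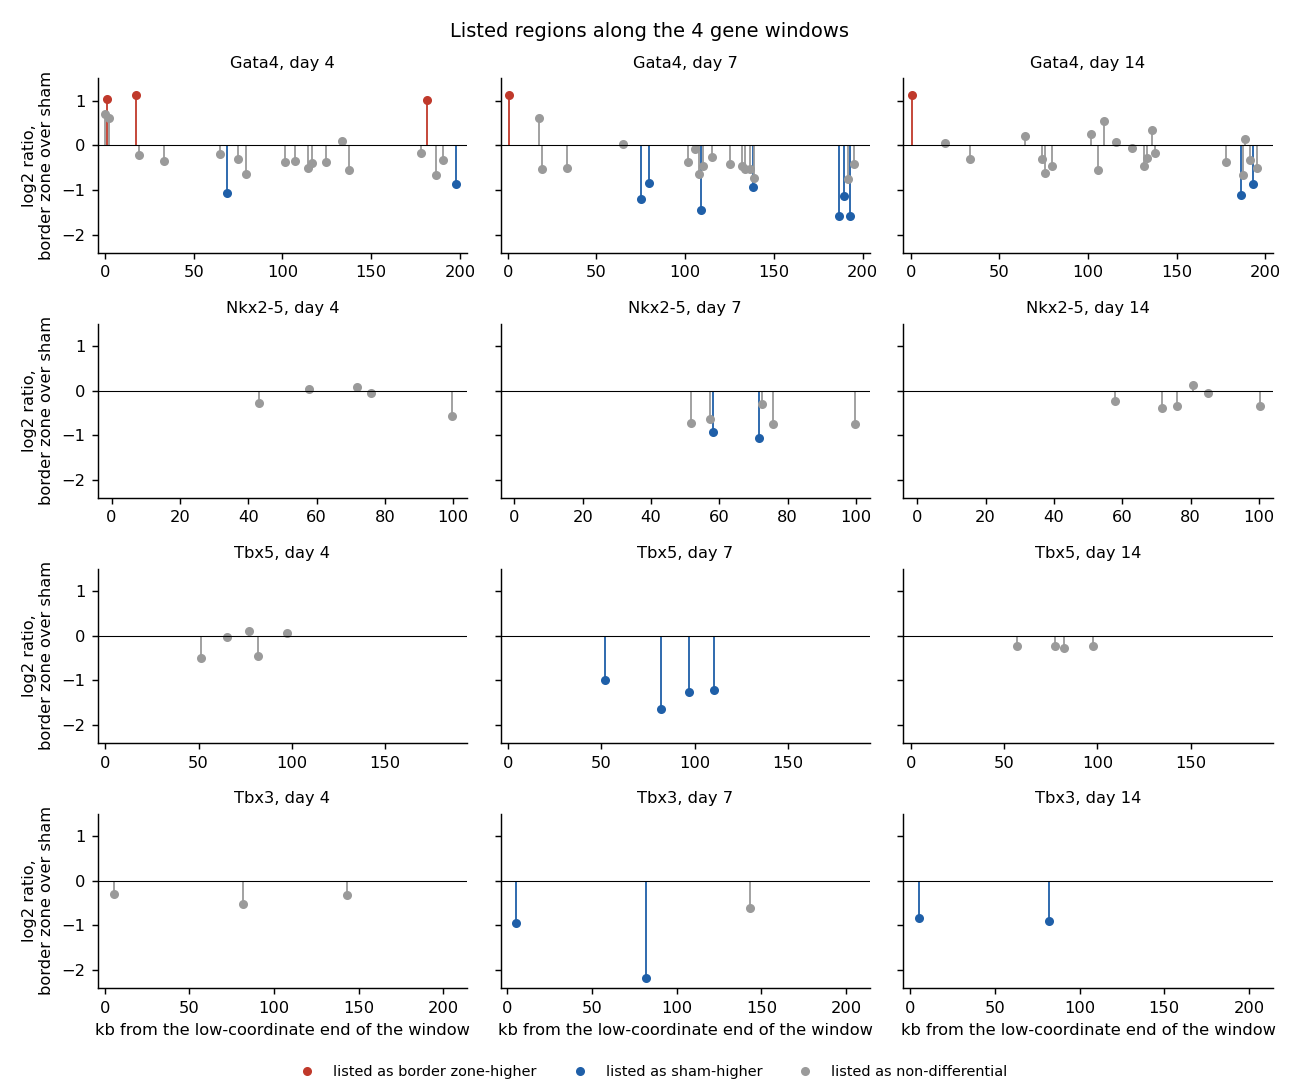
Log2 ratio of border zone over sham (y axis) of every listed region against its distance in kb from the low-coordinate end of the window (x axis), for each gene (rows) and day (columns); colours give the deposited list and each point is 1 region in 1 BZ and 1 sham library. BZ-higher regions appear in the Gata4 row only, with one at its low-coordinate end on all 3 days and further ones on day 4. All 4 Tbx5 points of day 7 are sham-higher, and most of them reached that day's minimum of 50 tags in sham only.

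Regions that overlapped between days were joined into 43 loci in the 4 windows, 25 for Gata4, 8 for Nkx2-5, 7 for Tbx5 and 3 for Tbx3. Of these, 21 were listed on all 3 days (13, 4, 2 and 2), 6 on day 4 alone, 3 on day 7 alone and 3 on day 14 alone. Over the whole series, 19733 of 60847 loci were listed on all 3 days. Shares of all loci listed on a single day are not given here, so the single-day counts are descriptions. A locus without an entry on a day may have fallen below that day's minimum of 35, 50 or 150 tags in the higher library on days 4, 7 and 14. The 21 loci were tested with edgeR's quasi-likelihood test on tags with day as a block, in a fit over all 19733 loci with Benjamini-Hochberg adjustment. Of the 21, 1 passed as higher in BZ (7.66% of all loci did) and 2 as higher in sham (2.32% of all did). The estimate was below 0 at 17 of the 21 loci, with a median log2 fold change of -0.14, against -0.01 over all loci. Without adjustment, 1 locus higher in BZ and 6 higher in sham had p under 0.05 in this edgeR test. The share of all loci at that unadjusted threshold is not given here, so these counts cannot be read as an excess. Since the labels do not say that libraries came from separate animals, these p-values reflect the spread of the 6 libraries alone, which may be technical.

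**Figure D4:**
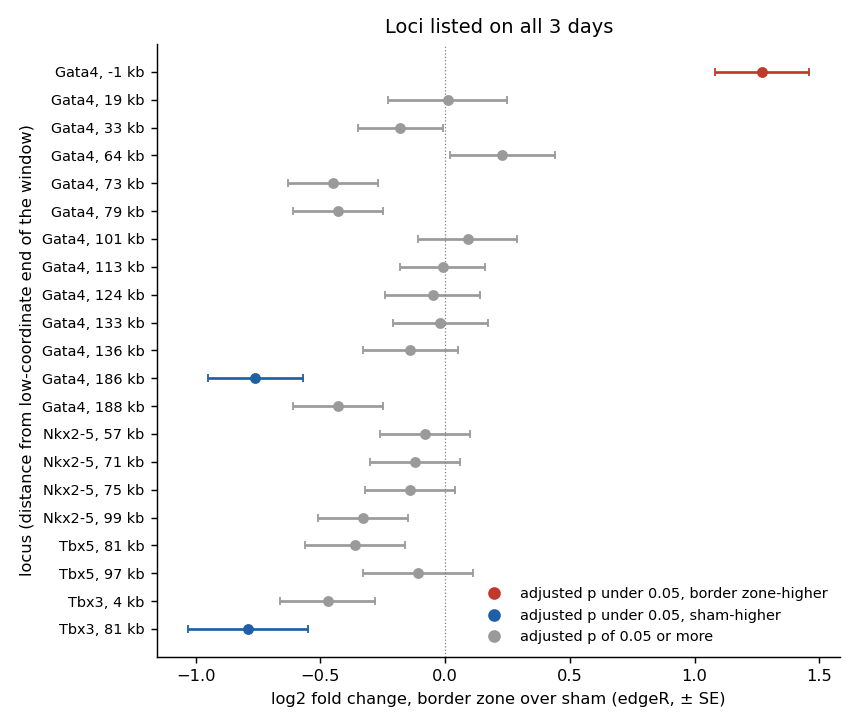
EdgeR log2 fold change of border zone over sham with its SE (x axis) for the 21 loci listed on all 3 days, labelled by gene and distance of the locus start from the low-coordinate end of the window (y axis). The Gata4 locus at the window's edge stands at 1.27, and the lowest estimates are -0.79 at a Tbx3 locus and -0.76 at a Gata4 locus.

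The Gata4 window held both directions. Its edge locus, chr14:63749251-63751750, had 113 in BZ and 60 in sham nuclei on day 4, 237 in BZ and 109 in sham on day 7, and 624 in BZ and 284 in sham on day 14. BZ was higher on all 3 days, by a fold of 1.88 (95% interval 1.35 to 2.62), 2.17 (1.70 to 2.78) and 2.20 (1.89 to 2.56). This locus rose in BZ by edgeR's quasi-likelihood test (log2 fold change 1.27, SE 0.19, adjusted p = 0.000205), and it passed with each day left out in turn. Its day 7 BZ tags are the closest combination of terms with different factors. It crosses the low-coordinate border of the window, so the gene it belongs to was not settled by position. Without it the Gata4 window's log2 ratio was -0.36, -0.64 and -0.23 on days 4, 7 and 14.

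Toward the other end of the Gata4 window, chr14:63935751-63937750 had 317 in BZ and 501 in sham on day 4, 87.6 in BZ and 264 in sham on day 7, and 531 in BZ and 913 in sham on day 14. BZ was lower on each day, and the locus fell in edgeR's quasi-likelihood test (log2 fold change -0.76, SE 0.19, adjusted p = 0.00927). The call was lost without day 7 (adjusted p = 0.0604) and without day 14 (adjusted p = 0.173), both by the same edgeR test. Next to it, chr14:63938251-63944250 had 321 in BZ and 404 in sham on day 4, 224 in BZ and 549 in sham on day 7, and 713 in BZ and 903 in sham on day 14, and did not pass (log2 fold change -0.43, edgeR adjusted p = 0.135). Both of these loci hold a region listed as sham-higher on day 7 and on day 14.

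The Gata4 locus with the most tags, chr14:63862751-63867750, had 470 in BZ and 654 in sham on day 4, 888 in BZ and 1066 in sham on day 7, and 2110 in BZ and 2002 in sham on day 14. BZ was lower on days 4 and 7 in listed values, and on day 14 the interval of its fold of 1.05 (0.986 to 1.13) spans 1. Its log2 ratio was below the median of all loci listed on 3 days on day 4 (-0.48 against -0.18). On days 7 and 14 it was above that median (-0.26 against -0.39, and 0.08 against -0.12). Over days it did not pass (log2 fold change -0.01, SE 0.17, edgeR adjusted p = 0.988), and the sign of this estimate depends on the setting. The 5 Gata4 loci listed on all 3 days from chr14:63850751-63852250 to chr14:63885751-63888750, which include this one, had edgeR log2 fold changes between -0.14 and 0.09, and none passed. On the low-coordinate side of them, chr14:63823251-63826750 had 508 in BZ and 624 in sham on day 4, 257 in BZ and 590 in sham on day 7, and 1281 in BZ and 1850 in sham on day 14 (log2 fold change -0.45, edgeR adjusted p = 0.100).

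Between the low-coordinate edge and the middle of the window, chr14:63782751-63784250 had 376 in BZ and 480 in sham on day 4, 147 in BZ and 209 in sham on day 7, and 570 in BZ and 708 in sham on day 14. BZ was lower on each day there by a similar share, and the Gata4 locus did not pass (log2 fold change -0.18, edgeR adjusted p = 0.516). At chr14:63814251-63815250 the groups were close, with 66 in BZ and 76 in sham on day 4, 63.3 in BZ and 62 in sham on day 7, and 288 in BZ and 248 in sham on day 14 (log2 fold change 0.23, edgeR adjusted p = 0.498).

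Some small Gata4 regions were listed as differential on day 4 and not on the later lists. At chr14:63767251-63768250, 39.3 in BZ stood against 18 in sham nuclei, the largest BZ-higher fold of that day among the members (2.18). That locus was non-differential on day 7, with 53.9 in BZ and 35 in sham, and was not listed on day 14. At chr14:63818251-63819250, 18.6 in BZ stood against 39 in sham, a fold of 2.09 in favour of sham, and the locus was listed on day 4 only. Near the high-coordinate end, chr14:63930751-63931750 was BZ-higher, with 38.3 in BZ and 19 in sham, and chr14:63947251-63948250 was sham-higher, with 19.7 in BZ and 36 in sham; neither was listed on days 7 or 14. Each of these day 4 regions rests on fewer than 60 tags over both libraries and reached that day's minimum of 35 in its higher library only. A region with fewer than 35 tags in both libraries could not be listed, so these folds depend on the listing. The minimums of 50 and 150 tags on days 7 and 14 were higher, so absence from those lists does not show a change.

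The Nkx2-5 window had no locus that passed. Its locus with the most tags, chr17:27028751-27031250, crosses the high-coordinate border of the window and had 309 in BZ and 462 in sham on day 4, 91.6 in BZ and 153 in sham on day 7, and 830 in BZ and 1048 in sham on day 14. BZ was lower on each day, without passing edgeR's quasi-likelihood test (log2 fold change -0.33, SE 0.18, adjusted p = 0.223). At chr17:27000751-27002750, values of 231 in BZ and 218 in sham on day 4, 109 in BZ and 177 in sham on day 7, and 617 in BZ and 806 in sham on day 14 were found. BZ was slightly higher there on day 4 and lower on days 7 and 14, and part of this locus was listed as sham-higher on day 7 with a fold of 2.09. That part (49.8 in BZ, 104 in sham) reached the day's minimum of 50 tags in sham only. So did the other sham-higher Nkx2-5 region of day 7, chr17:26987751-26988750 (28.3 in BZ, 54 in sham), so both listings depend on the minimum. The 2 remaining Nkx2-5 loci listed on all 3 days had edgeR log2 fold changes of -0.08 and -0.14. Of the other 4, 2 were listed on day 14 alone and were near equality, with 170 in BZ and 156 in sham at chr17:27010251-27011250 and 149 in BZ and 156 in sham at chr17:27014751-27015750.

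In the Tbx5 window the locus with the most tags, chr5:120310751-120313250, had 194 in BZ and 267 in sham on day 4, 16.3 in BZ and 51 in sham on day 7, and 535 in BZ and 644 in sham on day 14. Sham exceeded BZ by a fold of 3.12 on day 7 (1.70 to 6.11), against 1.38 on day 4 and 1.20 on day 14. Over days the Tbx5 locus did not pass (log2 fold change -0.36, SE 0.20, edgeR adjusted p = 0.255). The second Tbx5 locus listed on all 3 days, chr5:120326751-120328250, had 149 in BZ and 142 in sham on day 4, 25.6 in BZ and 61 in sham on day 7, and 320 in BZ and 376 in sham on day 14 (log2 fold change -0.11, edgeR adjusted p = 0.778). Its BZ value on day 4 was slightly above sham, and day 7 again had the widest gap. The other Tbx5 loci were listed on 1 or 2 days. At chr5:120280751-120282750, 82 in BZ stood against 115 in sham on day 4 and 53.9 in BZ against 107 in sham on day 7. At chr5:120306751-120307750 the values were 92 in BZ and 86 in sham on day 4, and 163 in BZ and 192 in sham on day 14. The Tbx5 region at chr5:120339751-120340750 entered the lists on day 7 only, as sham-higher, with 25.6 in BZ and 59 in sham. Both day 7 libraries also had the fewest listed tags of their condition, and the part of depth in these ratios was not tested. Apart from chr5:120280751-120282750, the Tbx5 loci listed on day 7 reached that day's minimum of 50 tags in sham only.

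In the Tbx3 window, chr5:120101251-120102250 had 133 in BZ and 189 in sham on day 4, 14.8 in BZ and 67 in sham on day 7, and 158 in BZ and 296 in sham on day 14. Sham exceeded BZ by a fold of 1.42 (1.13 to 1.79), 4.52 (2.37 to 9.49) and 1.88 (1.51 to 2.35). The day 7 value rests on 11 BZ tags before scaling, and only sham reached that day's minimum of 50 tags. The Tbx3 locus fell in BZ by edgeR's quasi-likelihood test (log2 fold change -0.79, SE 0.24, adjusted p = 0.0331). It missed the threshold without day 7 (adjusted p = 0.199) and without day 14 (adjusted p = 0.223) in edgeR, and in DESeq2 on all days (adjusted p = 0.0882). The other Tbx3 locus listed on all 3 days, chr5:120024251-120026250, has the most tags of that window, with 447 in BZ and 546 in sham on day 4, 79.5 in BZ and 154 in sham on day 7, and 346 in BZ and 619 in sham on day 14. It was sham-higher in the lists of days 7 and 14 and did not pass over days (log2 fold change -0.47, SE 0.19, edgeR adjusted p = 0.108). The last of the 3 Tbx3 loci, chr5:120162751-120163750, was non-differential on both days it was listed, with 42 in BZ and 52 in sham on day 4 and 35 in BZ and 53 in sham on day 7.

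The loci with the most tags were set beside loci of the other windows by the distance between their log2 ratios on the 3 days. The top Gata4 locus was closest to the top Nkx2-5 locus (Euclidean distance 0.65), and the top Nkx2-5 locus to chr14:63828751-63830250 in the Gata4 window (0.16). The top Tbx5 locus was closest to chr14:63938251-63944250 (0.38) and the top Tbx3 locus to chr14:63823251-63826750 (0.40), both in the Gata4 window. With 3 days per locus and 13 of the 21 loci in the Gata4 window, these distances are descriptions.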

How the data were processed

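Members, windows and comparisons were chosen with earlier results of these data known. The authors deposited, for each day, lists of regions (mm9) higher in border zone, higher in sham, or non-differential, with sham and border zone tags per region. Sham values are counts as the authors deposited them; border zone values are a scaled signal, except counts in the day 4 non-differential list, per the file headers and values. Bowtie2 (day 4), BWA (days 7 and 14) and bedtools are named per the submitters' processing notes. For aligner versions, the region caller, its thresholds and duplicate handling, nothing is given in the sources used here. Differential regions have a fold of at least 1.75 in the deposited values.

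Dividing by the scaling factors gave whole tags for 83103 of 85106 scaled values (97.6%, relative tolerance 0.001%); 2002 were sums of terms with different factors and 1 was approximate. Among members 74 of 78 were whole, and the tags of the other 4 are the closest combination, which need not be unique. Regions overlapping by 1 bp or more between days formed loci. Whole tags of the 19733 loci listed on 3 days were fitted with edgeR 4.0.16 (TMM factors, day and condition, quasi-likelihood test, Benjamini-Hochberg adjustment, threshold 0.05, 2 residual degrees of freedom) in R 4.3.3, after a test on simulated data. Alternatives used DESeq2 1.42.0, limma 3.58.1 on log2(listed value + 1), other scalings, filters and locus definitions, and each day left out. Exact binomial 95% intervals of the tags came from scipy 1.17.1 and cover counting error only.

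Loci named in the text were, per gene, the one with most tags, up to 6 that passed, the largest listed fold per day and direction, and the most alike locus of another window; other loci named were chosen after their values were seen. Regions were not assigned to promoters or cell type markers. The 30 RNA samples were not analysed here.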

Additional observations from a re-analysis of the deposited data

Results flagged for a closer look

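On listed values a locus of the Gata4 window, chr14:63858251-63860250, had counting intervals on opposite sides of equality on the days it was listed. Its log2 ratio of border zone over sham was -0.71 on day 7, from 133 in border zone and 218 in sham nuclei, and 0.54 on day 14, from 213 in border zone and 146 in sham nuclei. The days cover different stretches: the day 7 value sums 2 regions, chr14:63858251-63859250 (sham-higher, log2 ratio -1.44) and chr14:63859251-63860250 (non-differential, -0.45), and the day 14 value is 1 region, chr14:63858751-63859750, which overlaps part of each. The sham-higher region of day 7 (26.9 in border zone, 73 in sham) reached that day's minimum of 50 tags in sham only. Its ratio therefore depends on the listing. The day 7 fold interval of the locus (0.477 to 0.779) includes that day's median of all loci listed on 3 days (log2 ratio -0.39). Its day 14 interval (1.15 to 1.84) lies above the median of day 14 (log2 ratio -0.12). The locus was not listed on day 4. With 1 library per condition and day, the difference between days was not tested.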

How the results depend on the processing

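With day as no term in the edgeR fit, 0 member loci passed in either direction, as did 0 of the 19733 loci, and 1 BZ-higher and 0 sham-higher member loci had unadjusted p under 0.05. The BZ-higher count of 1 was the same with each day left out, and was 0 when loci were joined by midpoints within 250 bp, where 13 member loci were tested and the Gata4 edge locus was not among them. The sham-higher count of 2 became 1 with DESeq2, 7 with limma on listed values and 1 with midpoints. With a day left out it lay between 0 and 5 (5 without day 4, 0 without day 7 or day 14). Over all 19733 loci, the counts higher in BZ and sham were 1512 and 457 in edgeR and 1019 and 113 in DESeq2. They were 807 and 2542 in limma, and 1167 and 382 of 16328 loci with midpoints. Left-out days gave 3098 and 2142 over all loci without day 4, 954 and 129 without day 7, and 553 and 20 without day 14. At a fold of 2 the sham-higher member regions numbered 1 on day 4, 10 on day 7 and 1 on day 14, against 2, 15 and 4 on the lists. The BZ-higher ones stayed at 3, 1 and 1. The share of all listed regions at that fold is not given here. Counting only regions entirely inside the window left 0 BZ-higher on day 7. The mean log2 ratio of the Gata4 window moved to -0.14 with TMM factors, by more than its spread over days, and was -0.41 without its edge locus, an alternative chosen after seeing the data. Without day 7 the mean log2 ratio was -0.23 for Tbx5 and -0.24 for Nkx2-5. The estimate for chr14:63862751-63867750 turned to 0.02 with DESeq2 and 0.04 with no day term, and lay between -0.11 and 0.16 with a day left out. The causes of these shifts were not tested. Depth limits day 7 most, where Tbx3 and Tbx5 loci hold as few as 11 and 14 BZ tags.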
